A study of Homo sapiens with 3 samples.

Results

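The regions described here are 6 clusters of genes best known for use in a few specialised tissues, although single members can be used elsewhere: the epidermal differentiation complex, a cluster of olfactory receptors that encloses the beta-globin genes, a second olfactory receptor cluster, the clustered protocadherins, the type I keratins and the immunoglobulin heavy chain locus. Their members are the peaks in fixed intervals of the human genome build hg19, with 7.88 Mb in all. A peak belonged to a cluster if its midpoint fell inside. By this rule 159 of 117564 untreated peaks and 191 of 131798 peaks after hormone were members, 350 of 249362 in all. The peaks mark histone H3 trimethylated at lysine 36 (H3K36me3), mapped by chromatin immunoprecipitation and sequencing in LNCaP cells, an established line of human prostate cancer that responds to androgen. The 2 libraries used are LNCaP cells with no treatment and LNCaP cells given 100 nM dihydrotestosterone (DHT, a potent androgen) for 4 h in RPMI described as red-free; both were grown in RPMI with fetal bovine serum. How long the untreated cells were kept in serum or in red-free medium is not given in the labels, so medium and hormone cannot be told apart. Each condition has 1 library, so there is no replicate check and no p-value. Intervals are 95% and cover counting error only, treating neighbouring peaks as independent.

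H3K36me3 is laid down over gene bodies behind elongating RNA polymerase II, so it is known as a mark of transcribed genes. Clusters such as these hold tandem copies of related genes whose products serve a specialised cell: barrier proteins of keratinocytes, odorant receptors of sensory neurons, globins of red cells, cell-surface adhesion molecules of neurons, filament proteins of epithelia and hair, and antibody chains of B cells. In the protocadherin alpha and gamma groups each transcript joins 1 of many variable first exons, which has its own promoter, to constant exons shared at the far end of the group. Protocadherin beta genes have no shared constant exons. Close copies in such families can share sequencing reads, and the sources used here do not state how reads with several matches were treated.

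The promoters of the families differed in CpG dinucleotides, the sites of DNA methylation, and 6 of them are printed to show how protocadherin promoters read beside those of other families. Each is the 250 bases before a gene's start, 5′ to 3′, from RefSeq on GRCh38.p14, with each CpG in capitals. The gene shown is the first whose CpG number is nearest to the middle of its family. In other features it can differ: the LCE1A stretch has 36.4% G and C bases, against a family median of 55%. The peaks are on hg19, so these coordinates cannot be set beside those of peaks. The PCDHA11 stretch lies at chr5:140868707-140868956 on the plus strand of GRCh38.p14. The PCDHB16 stretch lies at chr5:141182137-141182386 on the plus strand of GRCh38.p14. The PCDHGA7 stretch lies at chr5:141382492-141382741 on the plus strand of GRCh38.p14. The OR51F2 stretch lies at chr11:4821071-4821320 on the plus strand of GRCh38.p14. The LCE1A stretch lies at chr1:152827223-152827472 on the plus strand of GRCh38.p14. The KRTAP2-2 stretch lies at chr17:41055231-41055480 on the minus strand of GRCh38.p14.
PCDHA11: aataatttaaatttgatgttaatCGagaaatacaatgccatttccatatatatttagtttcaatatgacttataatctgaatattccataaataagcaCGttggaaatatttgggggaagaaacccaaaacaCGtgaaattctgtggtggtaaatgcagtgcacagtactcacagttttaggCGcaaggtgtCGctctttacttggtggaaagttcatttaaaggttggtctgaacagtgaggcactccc
PCDHB16: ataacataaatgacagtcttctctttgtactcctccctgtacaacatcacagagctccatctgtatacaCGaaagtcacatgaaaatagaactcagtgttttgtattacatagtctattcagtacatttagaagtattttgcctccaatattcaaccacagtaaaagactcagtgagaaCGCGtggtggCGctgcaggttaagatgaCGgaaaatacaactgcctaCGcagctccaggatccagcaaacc
PCDHGA7: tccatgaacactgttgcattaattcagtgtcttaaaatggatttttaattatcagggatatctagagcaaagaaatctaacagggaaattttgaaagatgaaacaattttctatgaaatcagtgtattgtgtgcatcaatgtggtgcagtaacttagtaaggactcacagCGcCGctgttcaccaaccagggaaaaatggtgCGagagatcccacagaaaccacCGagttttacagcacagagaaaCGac
OR51F2: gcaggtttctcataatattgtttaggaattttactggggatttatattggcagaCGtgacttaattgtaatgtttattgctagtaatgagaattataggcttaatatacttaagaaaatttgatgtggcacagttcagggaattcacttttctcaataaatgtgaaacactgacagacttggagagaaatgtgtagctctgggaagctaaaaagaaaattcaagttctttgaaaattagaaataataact
LCE1A: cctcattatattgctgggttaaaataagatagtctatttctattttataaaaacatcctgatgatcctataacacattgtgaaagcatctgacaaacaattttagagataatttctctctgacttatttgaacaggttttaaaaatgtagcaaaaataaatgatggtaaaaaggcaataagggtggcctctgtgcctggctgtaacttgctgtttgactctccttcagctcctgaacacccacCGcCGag
KRTAP2-2: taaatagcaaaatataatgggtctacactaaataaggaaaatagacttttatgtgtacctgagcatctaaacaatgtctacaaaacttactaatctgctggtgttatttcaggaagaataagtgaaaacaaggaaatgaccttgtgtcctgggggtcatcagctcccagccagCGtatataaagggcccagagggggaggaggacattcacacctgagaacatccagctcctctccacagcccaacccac

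The protocadherin promoters shown hold 5 or 6 CpGs, the late cornified envelope promoter 2, and the olfactory receptor and keratin-associated promoters 1 each. Over the 47 protocadherin promoters in the table the median was 6 CpGs, with a range of 2 to 18. By group the medians were 5 for PCDHA (13 promoters), 6 for PCDHB (14) and 5.5 for PCDHG (20). The other families of these clusters had a median of 1 over 239 promoters. Their medians were 2 for LCE (late cornified envelope proteins) and 1 for SPRR (small proline-rich proteins). They were 1 for olfactory receptors of the groups OR51, OR52 and OR56, 2 for keratins (KRT) and 1 for keratin-associated proteins of hair (KRTAP). Only 20 of 28 keratin genes and 39 of 55 of these receptor genes had a promoter, so their medians leave out the rest. All 15840 protein-coding promoters had a median of 17, so the protocadherin promoters lay between. The S100A genes, which code for small calcium-binding proteins, stood apart from their neighbours with a median of 4 and a highest value of 24, and some of them lie beyond the interval. The 239 also include olfactory receptors elsewhere on chromosome 11.

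**Figure D1:**
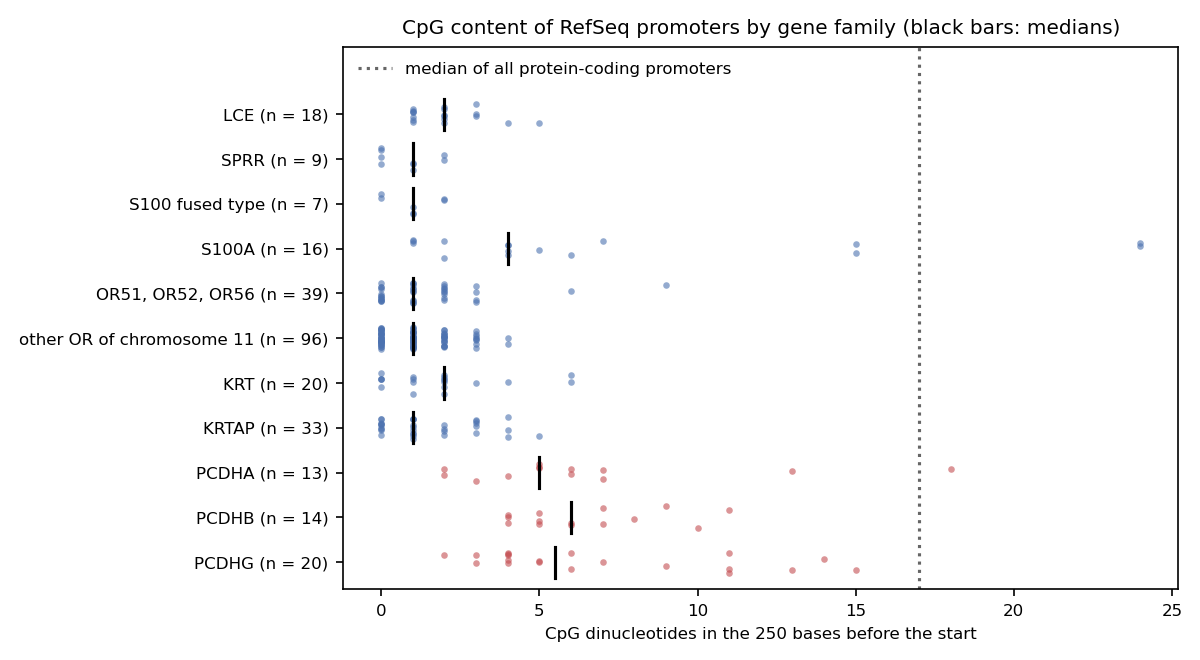
Number of CpG dinucleotides in the 250 bases before the start (x axis) for each promoter of a gene family (points, spread vertically for visibility), with the family median as a black bar and the median of all protein-coding promoters, 17, as a dotted line. Protocadherin groups (red) have medians of 5 to 6, against 1 to 4 in the other families (blue).

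Short motifs also differed in frequency between the families. The letters CGCT, the core of an element known to be conserved in clustered protocadherin promoters, were sought on both strands, also as AGCG, and could overlap other matches. They were present in 45 of 47 protocadherin promoters (95.7%), in 43 of the other 239 (18.0%) and in 75.9% of all 15840. The other families were not alike: the S100A promoters held it in 12 of 16 (75%), near the share of all promoters, and SPRR in 0 of 9. The KRTAP promoters held it in 5 of 33, with the printed KRTAP2-2 among them. The motif contains a CpG, so this count is not independent of the CpG number. TATAAA, a form of the TATA box, also as TTTATA, was in 6 of 47 protocadherin promoters (12.8%), 115 of the other 239 (48.1%) and 9.24% of all. It was most frequent in SPRR (8 of 9) and KRTAP promoters (29 of 33). These are matches of letters and not sites of binding.

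Over all 6 clusters there were 20.2 peaks per Mb untreated and 24.2 after DHT, covering 1.04% and 1.06%, and the protocadherins held 75 of 159 and 94 of 191 of the peaks. Outside the protocadherins, the clusters carried few H3K36me3 peaks in either library. The 5 remaining clusters, 7.14 Mb long, held 84 untreated peaks and 97 after DHT. That is 11.8 peaks per Mb (9.38 to 14.6) untreated and 13.6 (11.02 to 16.6) after DHT, against 38.0 and 42.6 over the whole genome. Peaks covered 0.496% of these intervals (0.367% to 0.624%) untreated and 0.487% (0.370% to 0.605%) after DHT. In the flanks, 1 Mb on each side, they covered 6.60% in both libraries. Over the whole genome they covered 2.08% untreated and 2.13% after DHT, so the flanks are a well-covered comparison. Flanks of these clusters were themselves well covered, above 92.9% and 92.2% of 1 Mb windows of the genome, while the clusters lay above 37.0% and 38.1%. These ranks set an average over several Mb among single windows. By cluster they ran from 17.6% (second olfactory cluster) to 50.2% (olfactory and beta-globin) untreated. After DHT they ran from 19.4% to 48.2% in the same 2 clusters. Covered percent in the 5 clusters was 13.3-fold lower than in the flanks (10.1 to 17.6) untreated. After DHT it was 13.5-fold lower (10.4 to 17.6). The protocadherins were set apart after their values were seen. For all 6 clusters against all their flanks, it was 6.08-fold lower (4.88 to 7.58) untreated and 5.82-fold lower (4.78 to 7.10) after DHT.

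**Figure D2:**
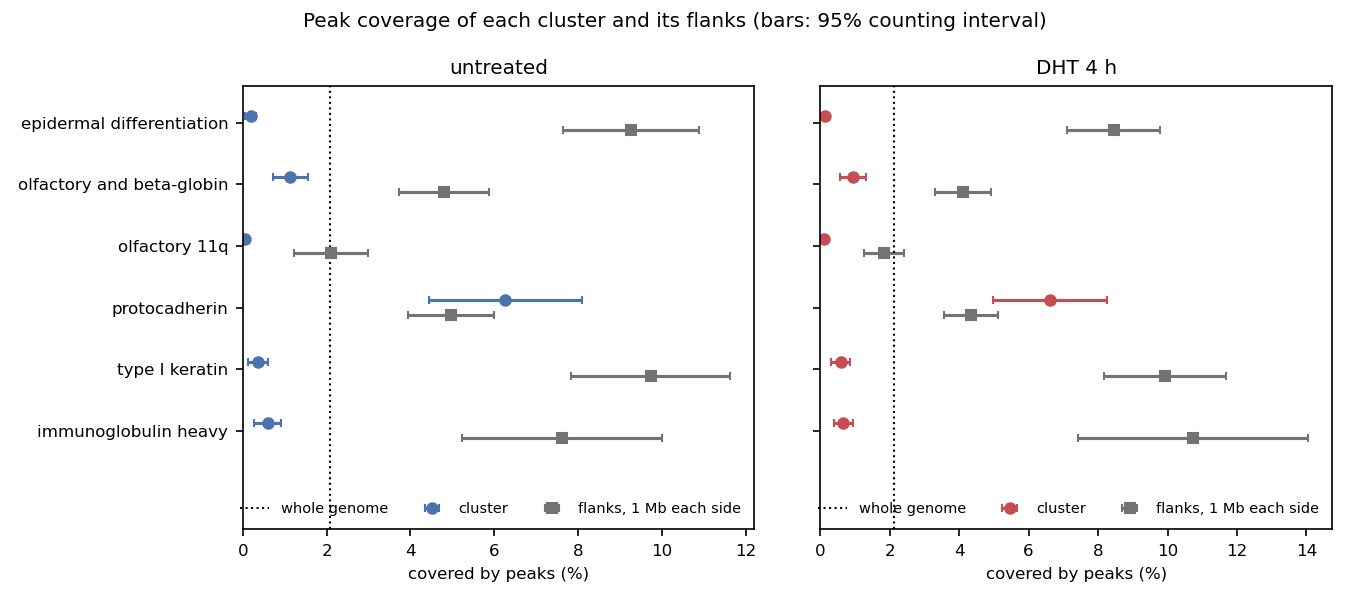
Percent of sequence covered by H3K36me3 peaks (x axis) in each cluster (coloured circles) and its flanks (grey squares), for the untreated library (left) and after DHT (right). Bars are 95% counting intervals, the dotted line is the whole genome, and the immunoglobulin heavy flank is on 1 side only. Clusters other than the protocadherins lie below their flanks in both libraries.

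The protocadherin interval, on chromosome 5 from 140160001 to 140900000, did not share this scarcity, which goes against a description of all 6 clusters as silent as far as peaks bear on it. It held 75 untreated peaks and 94 after DHT in 0.74 Mb, or 101 per Mb (79.7 to 127) and 127 per Mb (103 to 155). Peaks covered 6.26% (4.44% to 8.08%) untreated and 6.61% (4.96% to 8.26%) after DHT, more than in 92.2% of 1 Mb windows of the genome in each library. In its flanks they covered 4.97% and 4.33%. The ratio to the flanks was 1.26 (0.883 to 1.80) untreated and 1.53 (1.12 to 2.08) after DHT, but with flanks of 500 kb it was 0.749 (0.515 to 1.09) and 0.956 (0.689 to 1.33). An excess over the surroundings thus depended on the flank chosen. Against the other 5 clusters, covered percent was 12.6-fold higher (8.56 to 18.7) untreated and 13.6-fold higher (9.59 to 19.2) after DHT.

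The mark was not spread evenly along the protocadherins. The first 300 kb, a division chosen after the values were seen, held 2 untreated peaks and 5 after DHT. The remaining 0.44 Mb held 73 and 89. Covered percent was 0.166% and 0.580% in the first part and 10.4% (7.36% to 13.5%) and 10.7% (7.97% to 13.5%) in the rest. Dense peaks began at the same place in both libraries. The first untreated peak after the sparse part ran from 140474913 to 140475258, with a score of 57.8, and the first DHT peak from 140474915 to 140475248, with a score of 139. The score is the authors' own value for a peak and ranks peaks within 1 list. Before it lay 90.8 kb without an untreated peak and 261 kb without a DHT peak.

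Coverage was highest at the far end of the interval in both libraries. In successive bins of 100 kb it was 0.295%, 0%, 0.204%, 5.13%, 4.86%, 12.6% and 14.9% untreated, and 1.74%, 0%, 0%, 4.49%, 6.17%, 12.9% and 14.96% after DHT. The low bins come first in both libraries and the high ones last. The RefSeq order of genes on this stretch, on GRCh38.p14, is the alpha group from PCDHA1 onward, the beta group, SLC25A2 (a mitochondrial carrier) and TAF7 (a subunit of the general transcription factor TFIID), then the gamma group up to PCDHGC5, followed by DIAPH1 (an actin-nucleating formin). No hg19 annotation was used, so no peak was assigned to a group.

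The 2 longest blocks lay in this far part, where a block joins peaks of either list that lie within 5 kb of each other. The longest ran from 140764231 to 140812035, 47805 bp, with 10582 bp covered untreated and 11005 bp after DHT. The next ran from 140718477 to 140756627, 38151 bp, with 8802 and 9915 bp. Another, from 140864750 to 140878315, had 6494 bp untreated and 4046 bp after DHT. The widest peak of each library lay in that block, nearly in register: 2681 bp untreated from 140868664 to 140871344, and 2762 bp after DHT from 140868598 to 140871359. Their scores were 91.9 and 179. The highest scores of the interval were 353 untreated, from 140743652 to 140745142, and 476 after DHT, from 140772121 to 140773237, each overlapped by a peak of the other library.

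**Figure D3:**
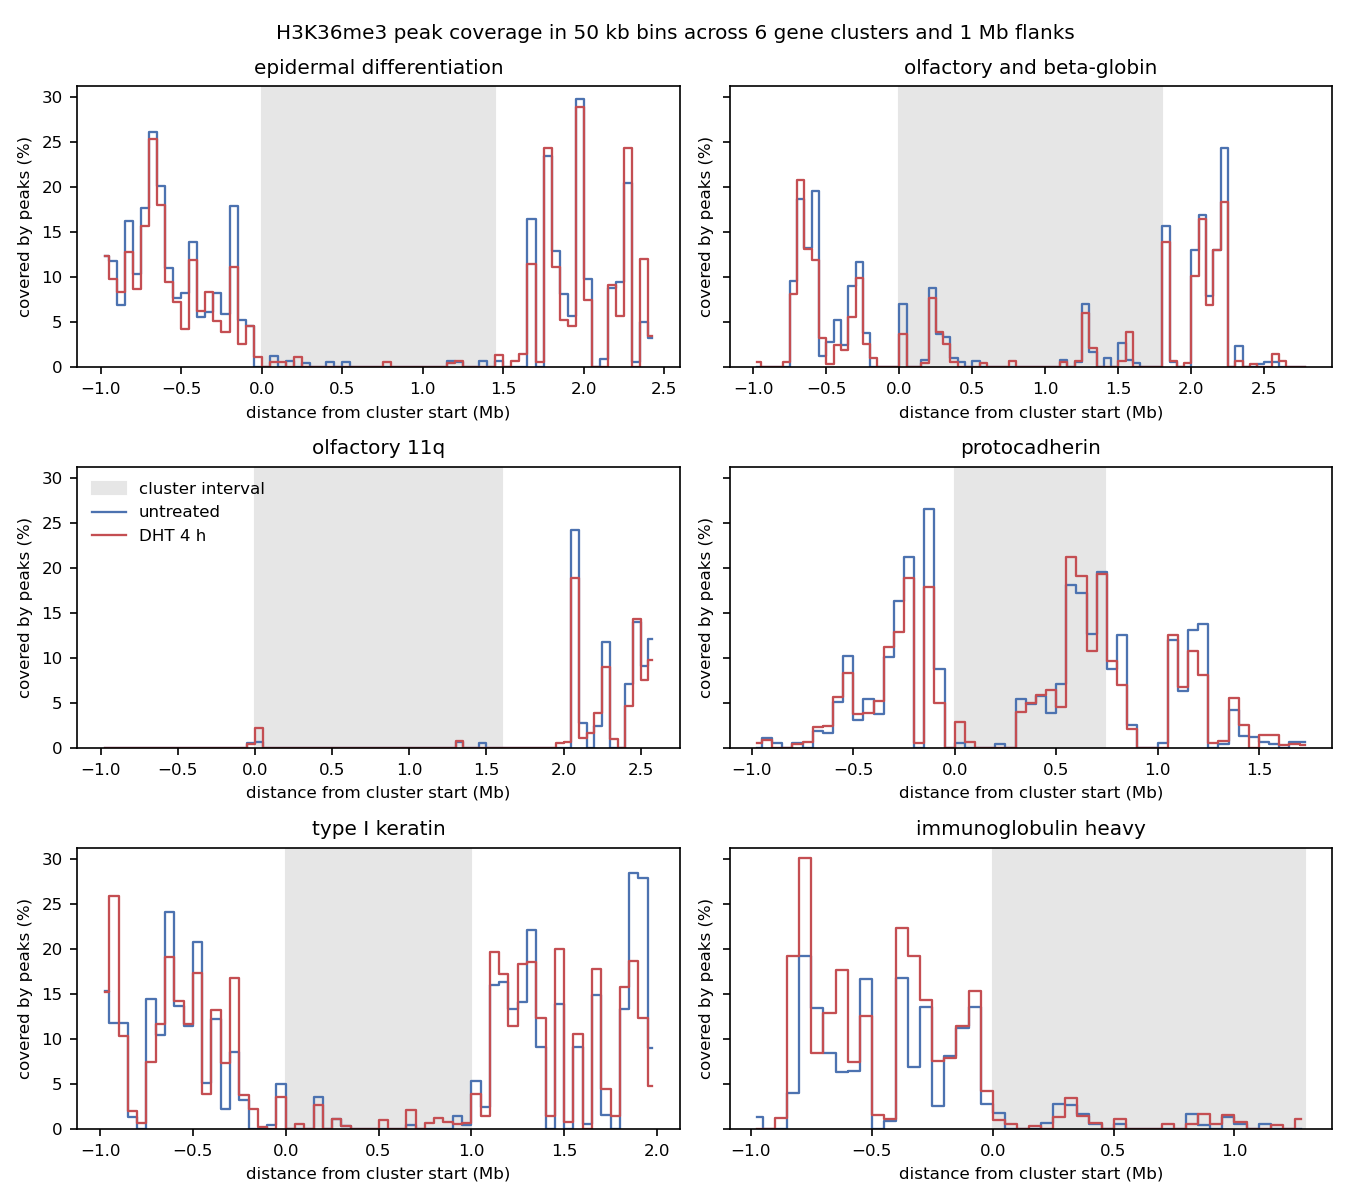
Percent of each 50 kb bin covered by peaks (y axis) against distance from the cluster start (x axis), untreated in blue and after DHT in red, with the cluster interval shaded. In the protocadherins, bins near the start are sparse and later bins are covered in both libraries. The second olfactory cluster and its left flank hold almost no peaks, and whether that flank is fully assembled was not checked.

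The epidermal differentiation complex, on chromosome 1 from 151950001 to 153400000, codes for proteins of the cornified envelope such as loricrin and involucrin, and for filaggrin, which bundles keratin filaments. It held 9 untreated peaks and 6 after DHT, with widths of at most 352 and 568 bp. The widest, from 153317644 to 153317995 untreated (score 52.9) and from 152192407 to 152192974 after DHT (score 70.0), lay far apart and had no counterpart. All peaks together covered 0.185% (0.0625% to 0.307%) and 0.138% (0.0215% to 0.254%), against 9.26% and 8.45% in the flanks, which was 50.2-fold lower (25.3 to 99.4) and 61.2-fold lower (26.0 to 145). Only 1 peak per library was overlapped by the other library. That pair, from 152004989 to 152005228 untreated and from 152004980 to 152005274 after DHT, also had the highest scores, 123 and 178, and lay 55.0 kb inside the edge. No peak of either library lay between 152733523 and 153130895.

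The olfactory and beta-globin cluster, on chromosome 11 from 4400001 to 6200000, was the most marked of the 5 and was marked in patches. It held 41 peaks in each library, covering 1.13% (0.711% to 1.55%) untreated and 0.940% (0.566% to 1.31%) after DHT. This was 4.26-fold (2.76 to 6.56) and 4.38-fold (2.81 to 6.82) lower than the flanks. In 3 of its 18 bins of 100 kb lay 25 of 41 untreated and 26 of 41 DHT peaks. The bin from 4600001 to 4700000 had 9 and 11 peaks and was covered over 6.23% and 5.73%. It held the widest peaks, 2081 bp from 4620815 to 4622895 untreated (score 365) and 2251 bp from 4620363 to 4622613 after DHT (score 159). The next bin had 6 and 4 peaks. The first bin, from 4400001 to 4500000, was covered over 3.51% untreated and 1.85% after DHT, the largest fall of any cluster bin, and held the highest DHT score of the cluster, 504, from 4411064 to 4411906.

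The other full bin of that cluster, from 5600001 to 5700000, had 10 and 11 peaks, covering 3.73% and 3.31%. Just beyond it a pair of peaks from 5700876 to 5701485 untreated and from 5700865 to 5701409 after DHT scored 335 and 447. Between the marked ends, no peak lay from 5166667 to 5529202, a stretch of 363 kb. The RefSeq order of protein-coding genes here holds 60 receptor and globin genes and 10 of other kinds. Early in the order come TRIM68, OR51D1, OR51E1 and OR51E2, of which OR51E1 and OR51E2 are known as prostate-specific G protein-coupled receptors. Later, after the globins, come TRIM5, TRIM6, TRIM34 and TRIM22, members of a family of E3 ubiquitin ligases with antiviral roles. These genes were named after the peaks were seen, and no peak was assigned to them.

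The second olfactory cluster, on chromosome 11 from 55000001 to 56600000, was nearly empty. It held 4 untreated peaks and 5 after DHT, and 1310665 bp of it, 81.9%, lay in a single stretch without a peak of either library. Near its start, a peak from 55026327 to 55026528 untreated scored 423 and its counterpart from 55026323 to 55026537 after DHT scored 337. Both were narrow, at 202 and 215 bp. The widest DHT peak, 420 bp from 55025413 to 55025832, scored 104 and was overlapped over 28.3% of its length. A second pair stood past the empty stretch, from 56337243 to 56337601 (score 96.0) and from 56337203 to 56337574 (score 71.7). The left flank of the cluster held 1 peak per library. Whether that flank is fully assembled in hg19 was not checked, so its lack of peaks cannot be read as absence of the mark. It is also part of the pooled flanks. Against the right flank alone, at 4.18% and 3.65%, covered percent was 68.0-fold lower (22.0 to 210) untreated and 39.7-fold lower (15.1 to 104) after DHT. With both flanks it was 34.2-fold and 19.97-fold lower.

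The type I keratin cluster, on chromosome 17 from 38800001 to 39800000, codes for acidic keratins, the partners of type II keratins in epithelial filaments, and for keratin-associated proteins of hair. It held 11 untreated peaks and 20 after DHT. Covered percent was 0.368% (0.124% to 0.613%) and 0.583% (0.317% to 0.849%), or 26.4-fold (13.2 to 52.7) and 17.0-fold (10.4 to 27.8) lower than the flanks. A single place stood out. The untreated peak from 38990630 to 38991337 scored 623, above 99.8% of that list and the highest of its peaks in any cluster. After DHT 2 peaks overlapped it, of which that from 38991153 to 38991318 scored 234, the highest of this cluster in that list. The widest DHT peak of the cluster, 553 bp from 39464445 to 39464997 with a score of 132, had no untreated counterpart.

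The immunoglobulin heavy chain locus, on chromosome 14 from 106000001 to 107290000, is rearranged and transcribed in B cells. It held 19 untreated peaks and 25 after DHT, covering 0.599% (0.275% to 0.922%) and 0.664% (0.379% to 0.949%). No peak lay beyond its far edge, so only the flank before it was compared, at 7.61% and 10.7%. Covered percent in the locus was 12.7-fold (6.81 to 23.7) and 16.2-fold (9.52 to 27.4) lower. The highest and widest untreated peak, from 106296303 to 106297706, scored 252.5 over 1404 bp. It was only partly matched after DHT: a peak from 106296816 to 106297139 with a score of 60.7 covered 23.1% of it. The highest DHT score was in a pair from 106048982 to 106049426 untreated and from 106048955 to 106049431 after DHT that scored 233 and 306. The widest DHT peak, 795 bp from 106986369 to 106987163 with a score of 192, had no untreated counterpart. The longest block, 9328 bp from 106296303 to 106305630, had 2736 bp covered untreated and 1507 bp after DHT.

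**Figure D4:**
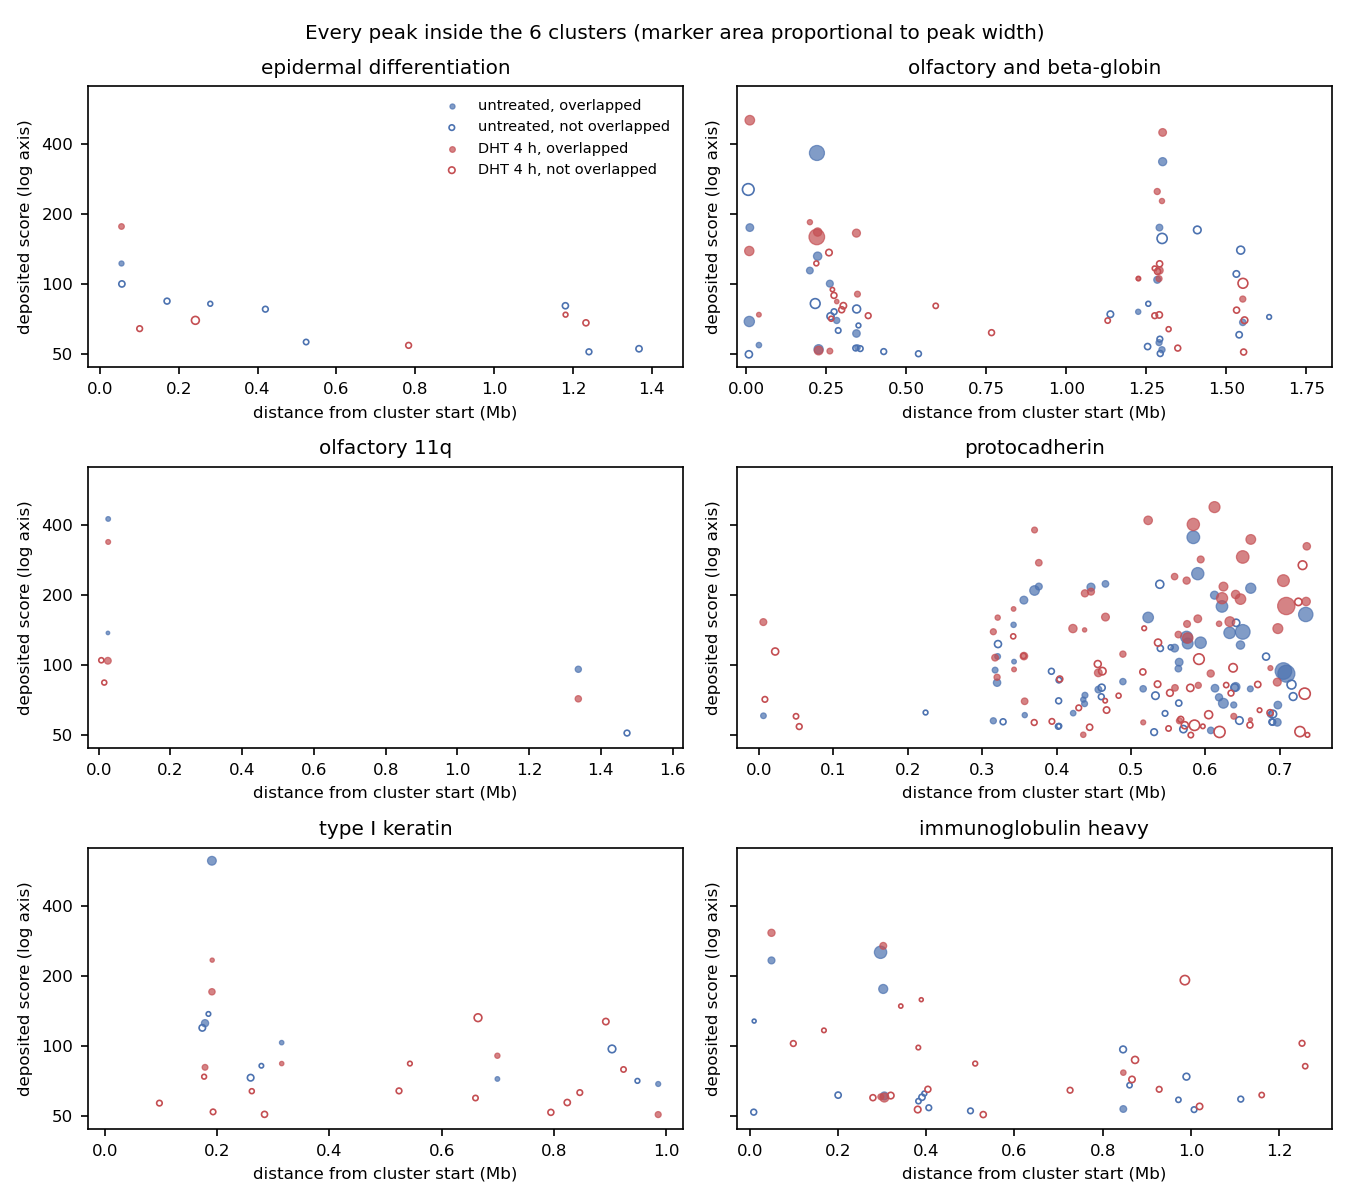
Deposited score on a log axis (y) against distance from the cluster start (x) for every peak inside the clusters, untreated in blue and after DHT in red, filled where a peak of the other library overlaps it. Marker area is proportional to peak width. Dense peaks of the protocadherins start past 300 kb, and the highest untreated marker, at a score of 623, is in the keratins.

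Pooled over the 5 sparse clusters, a smaller share of peaks was found in both libraries than over the whole lists. The shares varied by cluster, on small counts. Together, 32 of 84 untreated peaks were overlapped by a DHT peak by at least 1 bp, 38.1% (28.4% to 48.8%), where the share over the whole list is 52.3%. After DHT, 33 of 97 were overlapped by an untreated peak, 34.0% (25.4% to 43.9%), where the whole list has 48.5%. The second olfactory cluster had 3 of 4 (30.1% to 95.4%) untreated and 3 of 5 (23.1% to 88.2%) after DHT, too few to place against the lists. The olfactory and beta-globin cluster was nearer to the lists than the pooled share, with 18 of 41 (43.9%) in each library. The keratins had 5 of 11 and 6 of 20, the immunoglobulin locus 5 of 19 and 5 of 25, and the epidermal complex 1 of 9 and 1 of 6. In the flanks of the 5 the shares were 60.6% (56.9% to 64.2%) and 54.9% (51.5% to 58.3%). In the 5 clusters, as over the lists, peaks of higher score were more often overlapped, but the shares below a score of 200 stayed under those of the lists. Of peaks scoring 200 or more, 6 of 7 untreated and 8 of 8 DHT peaks were overlapped, against 88.9% and 93.1% over the lists. Of those below 200, 26 of 77 (33.8%) and 25 of 89 (28.1%) were, against 49% and 43.4%. In the protocadherins, 48 of 75 (64.0%, 52.7% to 73.9%) and 51 of 94 (54.3%, 44.2% to 64.0%) were overlapped.

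Pooled, the peaks of the sparse clusters were narrower, and farther from a neighbour, than those of their flanks. Median width was 349 bp untreated and 313 bp after DHT, against 596 and 462.5 bp in the flanks. The list medians are 374 and 354 bp. The olfactory and beta-globin cluster, with 41 peaks in each library, had 384 and 328 bp, and the 4 others ranged from 231 to 312 bp untreated and from 239 to 324 bp after DHT. A neighbour of the same library stood within 5 kb of 43 of 84 untreated peaks (51.2%) and 44 of 97 DHT peaks (45.4%). The shares were 79.9% and 81.3% in the flanks of the 5, and 73.5% and 76% over the lists. Neighbours and blocks depend on peak density, so these values are not independent of the scarcity of peaks. Here too the olfactory and beta-globin cluster was close to the lists, with 28 of 41 (68.3%) and 31 of 41 (75.6%), while the 4 others ranged from 18.2% to 50% untreated and from 0% to 40% after DHT. In the protocadherins 62 of 75 (82.7%) and 85 of 94 (90.4%) had one. Blocks of at least 10 kb numbered 2 of 94 in the 5 clusters, both on 11p, 5 of 30 in the protocadherins and 62 of 313 in the flanks of the 5, against 13.7% of all blocks. Both libraries contributed to 29 of 94 blocks in the 5 clusters (30.9%) and 23 of 30 in the protocadherins (76.7%), against 53% of all blocks. Peaks did not crowd toward the cluster edges: 16 of 84 (19.05%) and 15 of 97 (15.5%) lay within 100 kb of an edge, where 14.01% of the length lies.

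Pooled over the 5 clusters, the share of bins without a peak was close to that of the genome as binned here. Genome bins run from the start of each chromosome to its last peak, and unassembled sequence was not taken out. Such sequence cannot hold a peak, so it can raise the genome's share of empty bins. No peak of either library lay in 25 of 70 bins of 100 kb in the 5 clusters (35.7%), close to the 36.3% of 30916 bins of the genome; with the protocadherins it was 26 of 77. The clusters differed in this. The second olfactory cluster had 13 empty bins of 16, the epidermal complex 5 of 14 and the 11p cluster 5 of 18, while the keratins had 1 of 10 and the immunoglobulin locus 1 of 12. In the flanks of all 6 clusters 15 of 110 bins were empty (13.6%). In single libraries, 33 of 70 bins of the 5 clusters (47.1%) had no untreated peak, against 44.7% of the genome, and 32 of 70 (45.7%) had no DHT peak, against 43.3%.

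In no cluster did the number of peaks or the covered length differ between the libraries beyond counting error, and every interval of the ratio included 1. After DHT, covered length relative to untreated was 0.983 (0.690 to 1.40) in the 5 clusters and 1.06 (0.719 to 1.55) in the protocadherins, against 1.03 (1.01 to 1.04) over the genome. The keratins had the highest ratio by cluster, 1.58 (0.707 to 3.53), and the epidermal complex the lowest, 0.747 (0.256 to 2.18). Among bins of 100 kb the largest gain of any cluster was at the start of the protocadherins, from 0.295% with 1 peak to 1.74% with 5. For the number of peaks the ratio was 1.15 (0.853 to 1.57) in the 5 clusters and 1.25 (0.915 to 1.72) in the protocadherins, against 1.12 (1.11 to 1.13) over the genome. In the flanks of all 6 it was 1.19 (1.08 to 1.30). These intervals are wide, so a change of less than about the size they span was not detectable with so few peaks. Peaks record only where the caller's cut-off was exceeded, and in a bulk library a mark on some cells and a weaker mark on all cells cannot be told apart.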

How the data were processed

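H3K36me3 ChIP-seq of LNCaP cells was used as deposited, in 2 libraries, untreated and after DHT; the input library was not analysed here. The deposited file of each gives the position of every peak and a score, on hg19 per the file names. The names of the peaks give MACS as the caller; the sources used here state no version, settings, control, aligner or depth. The scale of the score is not stated; it ran from 50 to 3100 in both lists and ranks peaks within a list. Peaks on mitochondrial DNA were set aside.

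Clusters and lists of gene families were chosen with earlier results of these data known. Flanks past the last peak of a chromosome were left out. Named peaks are the widest and highest-scoring per cluster and library, the longest blocks and the longest empty stretches; others were named after their values were seen. Intervals are exact Poisson or binomial for peak numbers and their ratios, Wilson for shares, and from summed squared widths for covered length. Bins start at the cluster start and a partial last bin was dropped. Windows of 1 Mb were counted from position 1 of each chromosome, those without peaks included. Unassembled sequence was not removed from windows, bins, flanks or genome length. The code returned 6 of 6 known answers on 20000 simulated peaks. Gene order and promoters came from RefSeq tables of GRCh38.p14, matched by symbol; 286 of 344 protein-coding family members had a promoter there, and immunoglobulin segments had none. Python 3.11.15, NumPy 2.4.6, pandas 2.3.3 and SciPy 1.17.1 were used.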

Additional observations from a re-analysis of the deposited data

How the results depend on the processing

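Across the processing alternatives, 141 main values stayed within the range set for them, 33 moved and 1 reversed. With the higher-scoring 50% of peaks the 6 clusters held 9.14 (untreated) and 12.3 (DHT) peaks per Mb, covered 0.627% and 0.647%, and had 47 empty bins. With peaks joined over gaps of 1 kb they held 15.5 and 18.9 per Mb and covered 1.25% after DHT; over 5 kb, 11.2 and 12.8 per Mb, covering 2.62% and 2.83%. With an equal number of the highest-scoring peaks per list, the DHT over untreated ratio of peak number in the flanks was 1.06. With bins of 50 kb, 85 were empty. With flanks of 500 kb the protocadherin ratio was 0.749 untreated and 0.956 after DHT, which reversed the latter; the cause was not tested. Over 8 settings this ratio ranged from 0.749 to 1.36 untreated and from 0.956 to 1.78 after DHT, while that of each other cluster stayed below 1 in 8 of 8. Moving the division of the protocadherins, an alternative chosen after seeing the data, gave a later over earlier ratio of 46.9 and 13.8 at 250 kb, and 12.1 and 10.9 at 350 kb, against 62.6 and 18.5 at 300 kb. Leaving out 1 cluster at a time gave 11.8 to 24.7 and 13.6 to 29.6 peaks per Mb, 0.496% to 1.29% and 0.487% to 1.31% covered, ratios to flanks of 0.0751 to 0.218 and 0.0738 to 0.224, 38.1% to 53.6% and 34.0% to 47.6% overlapped, and 13 to 25 empty bins. The low values of coverage, density, ratio and overlap came without the protocadherins. No paired analysis was possible because each condition has 1 library. Depth is not known, so whether a weak peak was missed was not tested.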
